A study of Mus musculus with 12 samples.

Results

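Cysteine and glutathione metabolism was examined through 9 genes in C2C12 myotubes treated with the mitochondrial uncoupler BAM15. The genes encode the transsulfuration enzymes (Cbs and Cth), the enzymes that build glutathione (Gclc, Gclm and Gss), the reductase that recycles it (Gsr) and the enzymes that take it and related peptides apart (Chac1, Chac2 and Ggct). They were chosen by gene symbol as members of the pathway, at a time when earlier results of these data, Chac1 and Cth among them, were known, and all 9 are among the 15113 genes of the count table. C2C12 cells are mouse myoblasts of an established line, which fuse to myotubes when serum is lowered. Differentiated myotubes were exposed for 16 h to 20 μM BAM15 dissolved in DMSO or to the DMSO vehicle, with 6 libraries per condition, and the labels name no genetic change. Libraries were made with QuantSeq, which reads the 3′ end of each polyadenylated transcript, so counts do not grow with the length of a transcript. The labels do not say that libraries came from separate cultures, so p-values measure only the spread between these samples.

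Transsulfuration moves sulfur from homocysteine to cysteine. CBS joins homocysteine and serine to cystathionine, and CTH splits cystathionine to release cysteine. Glutamate-cysteine ligase, a catalytic subunit (GCLC) with a modifier subunit (GCLM), then joins glutamate and cysteine, GSS adds glycine to complete glutathione, and GSR uses NADPH to return oxidized glutathione to its reduced form. Inside the cell, CHAC1 and CHAC2 cleave glutathione to pyroglutamate and cysteinylglycine, and GGCT releases pyroglutamate from other γ-glutamyl amino acids. Cth and Chac1 are known targets of the transcription factor ATF4 in the integrated stress response, and Gclc, Gclm and Gsr are known targets of NRF2, the main regulator of antioxidant genes.

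Promoter windows are shown first for the glutathione-degrading paralogs, of which only Chac1 passed the test for a change after BAM15, and for Gclm. RefSeq windows (GRCm38.p6, 250 bases before to 50 after the transcription start) were found for 6 of the 9 genes and not for Cth, Gclc or Gsr. Capitals mark matches on either strand to 4 letter patterns. These were TGATGNAA (the core of the C/EBP-ATF response element, to which ATF4 binds), TGACNNNGC (the core of the antioxidant response element, to which NRF2 binds), TGACGTCA (the CRE), and TGACGCAA, which was added after the Chac1 window was seen. None of the 4 patterns can match from the same base as another on a strand, although matches may overlap in part. The windows read 5′ to 3′ along the gene, and lie at chr2:119350992-119351291 on the plus strand (Chac1), chr11:30986316-30986615 on the minus strand (Chac2) and chr3:122245307-122245606 on the plus strand (Gclm).
Chac1: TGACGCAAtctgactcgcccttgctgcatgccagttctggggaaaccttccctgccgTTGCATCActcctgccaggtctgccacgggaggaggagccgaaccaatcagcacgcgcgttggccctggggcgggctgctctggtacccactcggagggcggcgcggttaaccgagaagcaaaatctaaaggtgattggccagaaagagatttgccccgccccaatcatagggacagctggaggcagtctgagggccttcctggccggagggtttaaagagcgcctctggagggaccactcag
Chac2: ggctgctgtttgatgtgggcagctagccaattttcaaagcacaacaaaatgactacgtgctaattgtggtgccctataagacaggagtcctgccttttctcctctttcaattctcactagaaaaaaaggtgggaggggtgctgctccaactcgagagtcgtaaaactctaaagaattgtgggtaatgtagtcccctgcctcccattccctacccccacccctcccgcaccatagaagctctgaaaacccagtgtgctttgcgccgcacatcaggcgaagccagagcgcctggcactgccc
Gclm: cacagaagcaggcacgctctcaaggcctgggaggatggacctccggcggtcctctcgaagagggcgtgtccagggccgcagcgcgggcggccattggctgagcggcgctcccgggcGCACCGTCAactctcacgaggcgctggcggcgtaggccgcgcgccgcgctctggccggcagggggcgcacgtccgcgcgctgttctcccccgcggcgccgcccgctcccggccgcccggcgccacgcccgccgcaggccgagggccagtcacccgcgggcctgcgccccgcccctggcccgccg
The Chac1 window holds TGATGCAA on the strand opposite to the gene, 193 bases before the start, and TGACGCAA on the gene's own strand at position −250, the first base of the window. Of 32851 mouse windows of this length, 3.97% hold TGATGNAA and 0.490% hold TGACGCAA. The Chac2 window holds none of the 4 patterns. The Gclm window holds TGACNNNGC on the opposite strand as TGACGGTGC, 134 bases before the start, a pattern found in 12.4% of windows. The Ggct window holds this pattern at 2 places, the Gss and Cbs windows hold none of the 4, and TGACGTCA, found in 1.79% of all windows, was in none of the 6. A match is a run of letters and was not tested for binding.

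Each library held between 13983725 and 18866728 reads counted on genes. Values below are normalized counts, that is counts scaled by TMM to a library of mean size, and log2 fold changes (with standard errors, SE) compare BAM15 with vehicle in the edgeR quasi-likelihood test. P-values were adjusted by the Benjamini-Hochberg method over the 12730 genes tested. The thresholds were those of the study's methods, an adjusted p-value below 0.01, a fold change over 2 and a mean over 50 normalized counts. All 17 myotube markers examined were detected, and their summed normalized count ranged from 552854 to 622083 with vehicle and from 496137 to 659002 after BAM15. Of these markers, Acta1 and Myog rose and Mymk, Ckm and Mylpf fell at an adjusted p-value below 0.01, all under 2-fold, and Acta1 alone went from a mean of 127952 to 175768. A list of 9 genes of undifferentiated or dividing myoblasts summed to 6947 to 7943 with vehicle and to 3132 to 4189 after BAM15. Of this list, Myod1, Mki67, Top2a, Ccnb1 and Cdk1 fell and Myf5 rose past the thresholds, no gene was at 3 or fewer counts in every library of a condition, and the part of this shift in the results below was not tested. In RNA from whole cultures, fewer cells of a type and less RNA per cell cannot be told apart. Across many genes, BAM15 libraries 4 to 6 stood apart from BAM15 libraries 1 to 3, so results are also given within these numbers. The labels do not say what the numbers mark, and this division was taken from earlier results of these data.

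After BAM15, Cth, which releases cysteine, rose 17.1-fold and Chac1, which cleaves glutathione, 12.4-fold, and these 2 genes passed all thresholds. The subunits of glutamate-cysteine ligase, Gclm (1.56-fold) and Gclc (1.41-fold), rose past the p-value threshold only. Gss, Gsr, Chac2 and Ggct did not pass, and Cbs was at or near 0 reads. Of all tested genes, 7.28% passed the 3 thresholds, 3.70% with higher and 3.58% with lower counts after BAM15, against 2 of the 8 tested genes here. An adjusted p-value below 0.01 at any fold was reached by 42.3% of all tested genes, with 22.0% higher after BAM15, against 4 of these 8, which were all higher. Cth and Chac1 were also the genes whose conditions did not overlap, which held for 34.2% of all tested genes (17.1% higher and 17.0% lower after BAM15). The median log2 fold change of these 8 was 0.32 and that of all tested genes 0.024. Chac1 and Cth are among the genes that the study displayed as its most changed, so these shares are not independent evidence about the pathway.

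**Figure D1:**
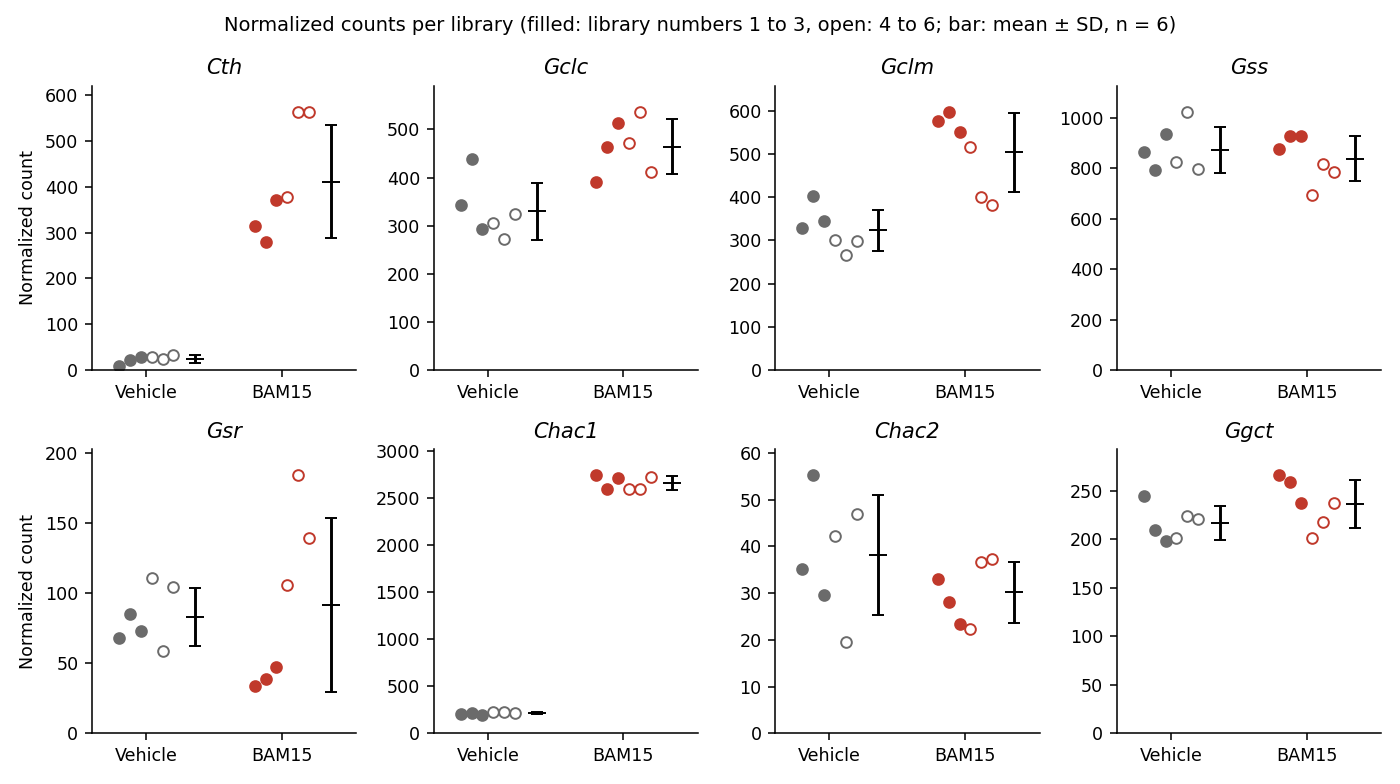
Normalized counts of the 8 tested genes in each of the 12 libraries, by condition, with filled points for library numbers 1 to 3, open points for 4 to 6 and bars for the mean ± SD of 6 libraries. The BAM15 and vehicle points are fully apart for Cth and Chac1, and for Gsr the filled BAM15 points (34.0 to 47.0) lie below and the open ones (106 to 184) largely above the vehicle points.

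Transsulfuration was represented by Cth alone. Positions are those of GRCm38. Cbs (ENSMUSG00000024039, chromosome 17, 31608894 to 31637238, 17 exons in the longest principal transcript of GENCODE M21, as for the exon counts below) gave 1 read in total over the 6 vehicle libraries and 5 over the 6 BAM15 libraries, with at most 2 in any library. It did not pass the filter on low counts. Both conditions were within 3 counts per library, the limit that a count of 0 allows for counting error, so no fold change is given. Other genes share 9.12% of the 50-base stretches found in the final 400 bases of its transcript.

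Cth (ENSMUSG00000028179, chromosome 3, 157894248 to 157925077, 12 exons) had a lowest, median and highest value of 9.69, 25.7 and 32.5 normalized counts with vehicle and of 279, 374 and 564 after BAM15. Every BAM15 library lay far above every vehicle library. The log2 fold change was 4.10 (SE 0.25, 95% interval 3.55 to 4.64, adjusted p = 7.98e-09 by edgeR, higher in 6 of 6 libraries), and 0.314% of tested genes changed by more. BAM15 libraries numbered 5 and 6 held the highest values, 562 and 564, whereas numbers 1 to 3 held 279 to 370. Within the BAM15 condition, numbers 4 to 6 were higher by 0.64 on the log2 scale (SE 0.18, adjusted p = 0.0110 by edgeR), and 18.6% of all tested genes were higher in numbers 4 to 6 at an adjusted p-value below 0.05. The increase over the vehicle libraries of the same numbers was 4.03 for numbers 1 to 3 and 4.14 for numbers 4 to 6 (difference 0.12, SE 0.41, adjusted p = 0.887 from the edgeR interaction test).

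Glutamate-cysteine ligase, which catalyzes the rate-limiting step of glutathione synthesis, rose by less than 2-fold in both subunits. Gclm (ENSMUSG00000028124, chromosome 3, 122245557 to 122270732, 7 exons), the modifier, had a lowest, median and highest value of 266, 315 and 402 normalized counts with vehicle and of 382, 532 and 597 after BAM15. The conditions overlapped, since vehicle library 2 (402) lay just above BAM15 library 5 (401) and above BAM15 library 6 (382), but 6 of 6 BAM15 libraries were above the vehicle mean. Its log2 fold change was 0.64 (SE 0.13, 95% interval 0.37 to 0.91, adjusted p = 5.35e-04 by edgeR). Gclc (ENSMUSG00000032350, chromosome 9, 77754535 to 77794485, 16 exons), the catalytic subunit, had 272, 315 and 439 normalized counts with vehicle and 390, 467 and 537 after BAM15. Again 1 vehicle library, number 2, reached into the BAM15 range, and 4 of 6 BAM15 libraries exceeded it. The log2 fold change of Gclc was 0.50 (SE 0.11, 95% interval 0.25 to 0.74, adjusted p = 1.84e-03 by edgeR).

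Both subunits were also examined by library number. Gclm was lower in BAM15 numbers 4 to 6 (382 to 515) than in numbers 1 to 3 (550 to 597), a log2 difference of −0.41 (SE 0.11, adjusted p = 7.50e-03 by edgeR), and 20.2% of tested genes were lower in numbers 4 to 6 at an adjusted p-value below 0.05. The vehicle libraries had a difference of −0.31 in the same direction (adjusted p = 0.841), and the BAM15 effect on Gclm was 0.68 within numbers 1 to 3 and 0.58 within numbers 4 to 6. For Gclc these effects were 0.35 (adjusted p = 0.0483) and 0.65 (adjusted p = 1.17e-03, both from edgeR's 4-group model), and the difference between them, 0.30, had an SE of 0.20 and an adjusted p-value of 0.364. Gclc did not pass an adjusted p of 0.01 when fitted in numbers 1 to 3 alone (log2 fold change 0.35, adjusted p = 0.0473). The ratio of Gclc to Gclm reads within a library, which needs no scaling between libraries, had a log2 mean of 0.022 ± 0.13 with vehicle and of −0.10 ± 0.35 after BAM15 (SD, n = 6). The difference of −0.13 was within this spread (exact two-sided permutation test p = 0.424, also 0.424 after adjustment over 2 pairs).

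Gss, the second enzyme of glutathione synthesis, showed no shift beyond its spread. Gss (ENSMUSG00000027610, chromosome 2, 155563181 to 155592810, 13 exons) had 792, 846 and 1025 normalized counts with vehicle and 695, 848 and 929 after BAM15 as lowest, median and highest values. BAM15 libraries 4 and 6 (695 and 787) lay below every vehicle library, and 3 of 6 BAM15 libraries were above the vehicle mean. Its log2 fold change was −0.058 (SE 0.084, adjusted p = 0.588 by edgeR), and the 95% interval of the BAM15 to vehicle ratio ran from 0.848 to 1.09. Within the BAM15 condition, numbers 4 to 6 were at −0.25 on the log2 scale against numbers 1 to 3 (adjusted p = 0.0508 by edgeR).

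Gsr, which encodes glutathione reductase, had the widest spread of these 8 genes after BAM15. Gsr (ENSMUSG00000031584, chromosome 8, 33652523 to 33698163, 13 exons) had 67.8, 85.1, 72.6, 110, 58.8 and 104 normalized counts in vehicle libraries 1 to 6 and 34.0, 38.9, 47.0, 106, 184 and 139 in BAM15 libraries 1 to 6. BAM15 numbers 1 to 3 were below every vehicle library, and BAM15 numbers 5 and 6 were above every one. The SD was 67.5% of the mean after BAM15 and 24.8% with vehicle, whereas for Chac1 it was 2.76% and 6.43%. Over all 12 libraries the log2 fold change of Gsr was 0.14 (SE 0.39, 95% interval −0.71 to 0.99, adjusted p = 0.790 by edgeR), and its sign was negative in 6 of 25 alternative fits, among them limma-voom and the fits without BAM15 library 5 or without BAM15 library 6.

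Within library numbers 1 to 3, Gsr had a log2 fold change of −0.90 (SE 0.26, adjusted p = 7.84e-03), and within numbers 4 to 6 of 0.65 (SE 0.22, adjusted p = 0.0210 in edgeR's 4-group model). These effects differed by 1.56 (SE 0.34, adjusted p = 0.0444 by the edgeR interaction test). The same test called 2.66% of all tested genes, and limma-voom gave an adjusted p of 0.0547 for Gsr and called 0 of 12730 genes, with 3270 at an unadjusted p-value below 0.05 against 3313 in edgeR. Among the BAM15 libraries alone, numbers 4 to 6 were 1.84 higher on the log2 scale (SE 0.25, adjusted p = 1.25e-04), while the vehicle libraries differed by 0.28 (SE 0.24, adjusted p = 0.868 by edgeR). At an adjusted p-value below 0.05, 18.6% of all tested genes were higher in BAM15 numbers 4 to 6. The division was known to separate the BAM15 libraries, so these p-values are not independent of that knowledge. The genes whose log2 CPM (counts scaled to library size) followed Gsr most closely over the 12 libraries were Tmem67, Sec24b and Gm14138, with Pearson correlations of 0.985, 0.977 and 0.974. This listing for Gsr was made after its values were seen, and the 12 points share condition and library number.

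**Figure D2:**
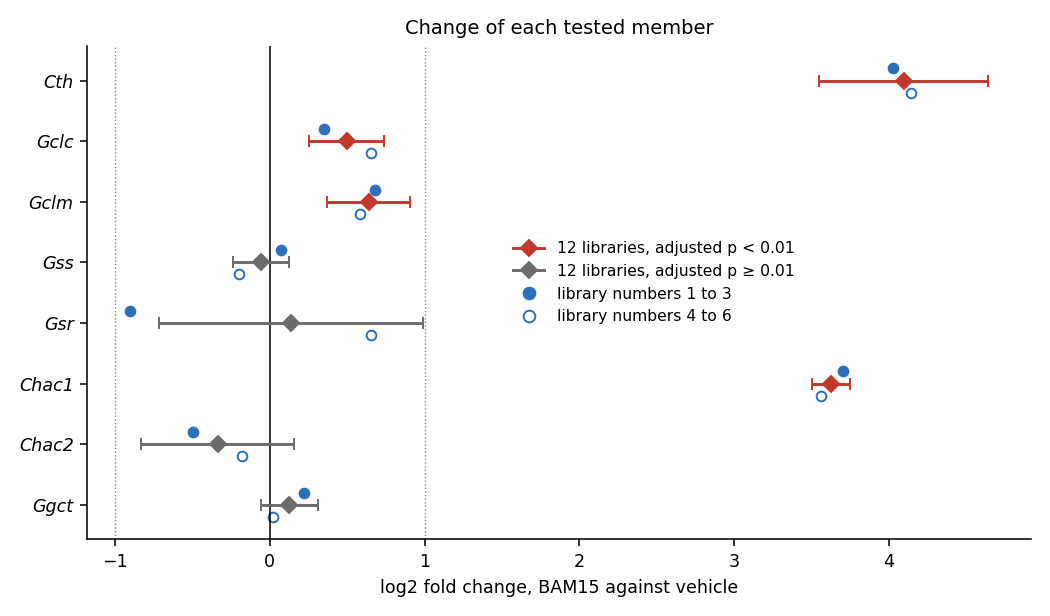
Log2 fold change of the 8 tested genes after BAM15 against vehicle, with diamonds and 95% intervals for all 12 libraries (red where the adjusted p-value is below 0.01) and blue points for library numbers 1 to 3 (filled) and 4 to 6 (open). Dotted lines mark a 2-fold change. Cth (4.10) and Chac1 (3.63) lie far from the rest, and the blue points fall on opposite sides of 0 by the largest distance for Gsr (−0.90 and 0.65).

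Among the glutathione-cleaving enzymes, Chac1 rose and its paralog Chac2 did not pass. Chac1 (ENSMUSG00000027313, chromosome 2, 119351229 to 119354381, 3 exons) had a lowest, median and highest value of 194, 218 and 229 normalized counts with vehicle and of 2588, 2652 and 2741 after BAM15. The conditions were far apart, and libraries of a condition lay close together. The fitted increase was 12.4-fold (95% interval 11.4 to 13.5, adjusted p = 3.39e-15 by edgeR, higher in 6 of 6 libraries), and 0.526% of tested genes changed by more. It was 3.70 on the log2 scale within library numbers 1 to 3 and 3.56 within numbers 4 to 6 (difference −0.14, SE 0.10, adjusted p = 0.389, edgeR interaction test), and the BAM15 libraries with these numbers differed by −0.023 (SE 0.063, adjusted p = 0.800).

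Chac2 (ENSMUSG00000020309, chromosome 11, 30976707 to 30986350, 2 exons), the more slowly acting and generally constitutive paralog, had few reads, with 19.6, 38.7 and 55.3 normalized counts with vehicle and 22.4, 30.5 and 37.4 after BAM15. All 6 BAM15 libraries lay below the vehicle mean of 38.2, but the lowest value belonged to vehicle library 5. The log2 fold change was −0.34 (SE 0.23, 95% interval −0.83 to 0.16, adjusted p = 0.234 by edgeR), and its mean of 34.2 normalized counts was under the threshold of 50. Reads of Chac1 exceeded those of Chac2 in every library. The within-library log2 ratio of Chac1 to Chac2 was 2.55 ± 0.53 with vehicle (range 1.98 to 3.50) and 6.46 ± 0.31 after BAM15 (range 6.13 to 6.82, SD, n = 6), so that the ratio went from 5.86 to 88.3 reads of Chac1 per read of Chac2. The difference of 3.91 gave p = 0.00216 in an exact two-sided permutation test, the smallest p-value that 924 arrangements allow, and 0.00433 after adjustment over 2 pairs. With the libraries paired by number, an exact sign-flip test gave 0.0625 after this adjustment, and its unadjusted p-value was the smallest that 6 pairs of libraries allow. Both tests largely restate the rise of Chac1, which was known beforehand, while Chac2 stayed at few reads, so they are not separate evidence. The planned comparison of Cth with Cbs was left out because of the Cbs counts.

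**Figure D3:**
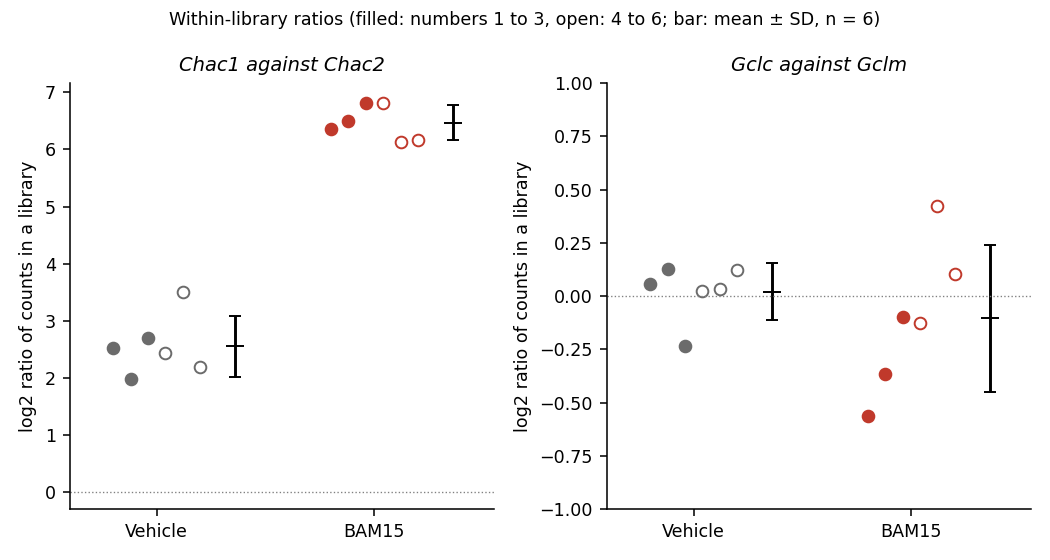
Log2 ratio of reads within each library for Chac1 against Chac2 and for Gclc against Gclm, by condition, with filled points for library numbers 1 to 3, open points for 4 to 6 and bars for the mean ± SD of 6 libraries. The Chac1 to Chac2 ratio is 1.98 to 3.50 with vehicle and 6.13 to 6.82 after BAM15, whereas the Gclc to Gclm ratios of the conditions overlap around 0.

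Ggct (ENSMUSG00000002797, chromosome 6, 54982580 to 54992950, 4 exons) had 198, 215 and 245 normalized counts with vehicle and 201, 237 and 266 after BAM15. The ranges overlapped over most of their length, although 5 of 6 BAM15 libraries exceeded the vehicle mean. The log2 fold change was 0.13 (SE 0.086, 95% interval −0.056 to 0.31, adjusted p = 0.228 by edgeR). For all genes here except Cbs, the last 400 bases of the transcript share no 50-base window with another gene and overlap no exon of another gene on either strand.

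The patterns most like those of the changed genes were found by the correlation of log2 CPM over the 12 libraries. For Cth these were Zfp623, Snhg1 and Tcof1 (Pearson correlation 0.992, 0.989 and 0.988), whose own log2 fold changes were 1.05, 1.88 and 0.83. For Chac1 they were Tra2b, Gpr137b and Leprotl1 (0.999, 0.998 and 0.998), with log2 fold changes of 2.08, 2.77 and 1.04. These values largely restate the difference between conditions that the genes share.

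The wider pathway was described through 6 lists written from general knowledge, with 84 entries, of which 68 could be tested. Past the 3 thresholds, 11 were higher and 1 was lower, and at an adjusted p-value below 0.01 alone, 24 were higher and 9 lower. Over all tested genes, 3.70% were higher and 3.58% lower past the thresholds, and 22.0% were higher and 20.3% lower at that p-value. The median log2 fold change over the 68 was 0.23, against 0.024 over all tested genes.

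Uptake of the building blocks of glutathione was the list with the largest share of changed genes. Of its 6 genes, 5 rose past the thresholds and the median log2 fold change was 1.84. For all tested genes the share was 3.70% and the median 0.024. Slc7a11, the cystine-glutamate exchanger through which cultured cells take up cystine, had 8.13 to 16.2 normalized counts in the vehicle libraries and 221 to 349 in the BAM15 libraries, with no overlap. Its log2 fold change of 4.58 (SE 0.18, adjusted p = 2.03e-11 by edgeR) stood beside 4.10 for Cth, and the study displayed both genes among its most changed. Slc3a2, its heavy-chain partner, rose by 2.37 on the log2 scale, the neutral amino acid and glutamine carriers Slc1a5 by 1.89, Slc7a5 by 1.79 and Slc1a4 by 1.71.

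The methionine cycle, which supplies homocysteine to transsulfuration, held genes of both directions. Of 8 tested genes, 2 rose and 1 fell at an adjusted p-value below 0.01, all under 2-fold, and the median log2 fold change was 0.23. These counts were near or below the shares of all tested genes, 22.0% higher and 20.3% lower at that p-value. Mat2a, which makes S-adenosylmethionine, fell from 5615 ± 158 to 4038 ± 537 normalized counts (SD, n = 6; log2 fold change −0.48, adjusted p = 1.09e-04 by edgeR). Mtrr, which keeps methionine synthase active, rose by 0.63 and Ahcyl1 by 0.60. Mtr, methionine synthase itself, had −0.23 and Ahcy, which releases homocysteine, −0.16, with adjusted p-values of 0.0815 and 0.315. Mat1a, Bhmt and Bhmt2 were not analysed here.

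In cysteine and sulfide use, 1 of 11 tested genes rose past the thresholds and 1 further gene fell at an adjusted p-value below 0.01, with a median of −0.032. Among all tested genes, 3.70% rose past the thresholds. At that p-value 22.0% of all tested genes rose and 20.3% fell, so both directions were below the general share there. Got1, the cytosolic aspartate aminotransferase that can also deaminate cysteine, rose from 1417 ± 82.0 to 3063 ± 409 normalized counts (SD, n = 6), or by 1.11 on the log2 scale (SE 0.081, adjusted p = 2.26e-08 by edgeR). It was 1.00 within library numbers 1 to 3, just under 2-fold, and 1.21 within numbers 4 to 6. Suox, sulfite oxidase, fell by 0.36 on the log2 scale (adjusted p = 1.21e-04 by edgeR). The mitochondrial sulfide oxidation genes Sqor (0.44, adjusted p = 0.176) and Ethe1 (−0.052, adjusted p = 0.655) did not pass. Sqor was at −0.084 within library numbers 1 to 3 and at 0.77 within numbers 4 to 6 (adjusted p of the difference 0.0793, edgeR interaction test). Nfs1 did not pass over all 12 libraries (−0.23, adjusted p = 0.226), with −0.62 and 0.067 within these numbers (adjusted p of the difference 0.0442). The same test called 2.66% of all tested genes, and limma-voom called 0 of 12730.

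Genes that use glutathione as a reductant, belong to the thioredoxin system or supply NADPH moved in both directions. Of 14 tested, 3 rose and 5 fell at an adjusted p-value below 0.01, and the median log2 fold change was −0.14. Over all tested genes, 22.0% rose and 20.3% fell at that p-value, so the number that rose was near the general share. The glutathione peroxidases Gpx1 (−0.36), Gpx3 (−0.52) and Gpx8 (−0.59) and the glutaredoxin Glrx (−0.70) fell without overlap between the conditions, as did 17.0% of all tested genes. Of the same families, Gpx4 (0.35), Glrx2 (−0.091), Glrx3 (0.21) and Glrx5 (−0.12) did not pass (adjusted p of 0.315, 0.395, 0.0361 and 0.0794 by edgeR). Gpx4 shares 85.8% of its 3′ windows with other genes. Both oxidative enzymes of the pentose phosphate pathway rose, G6pdx, which shares 7.12% of its 3′ windows with G6pd2, by 0.69 and Pgd by 0.30, and the thioredoxin reductase Txnrd1 rose by 0.56. Idh1, a cytosolic NADPH source, fell past all thresholds from 1677 ± 156 to 752 ± 319 normalized counts (SD, n = 6), a log2 fold change of −1.16 (SE 0.24, adjusted p = 1.38e-03 by edgeR). Me1, another such source (−0.30), and Txn1, thioredoxin (−0.17), did not pass (adjusted p of 0.0560 and 0.673 by edgeR). Like Gsr, Idh1 was lower in BAM15 numbers 1 to 3 (385 to 529) than in numbers 4 to 6 (872 to 1126), with effects of −1.70 and −0.81 (adjusted p of the difference 0.0442, edgeR interaction test), and it was under 2-fold in the latter. That adjusted p is the lowest of this test, which called 2.66% of all tested genes, and limma-voom called 0 of 12730.

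Glutathione transferases and glyoxalases included 3 genes that rose past the thresholds among 18 tested, with 7 higher and 2 lower at an adjusted p-value below 0.01 and a median of 0.35. The shares of all tested genes were 3.70% higher past the thresholds, and 22.0% higher and 20.3% lower at that p-value. Gsta4, a transferase known for conjugating lipid aldehydes, rose from 230 ± 17.7 to 1752 ± 151 normalized counts (SD, n = 6; log2 fold change 2.93, adjusted p = 2.26e-13 by edgeR), Gsto1 rose by 1.14 and Gstm1 by 1.04. Gstm1 was at 1.16 within library numbers 1 to 3 and at 0.91, under 2-fold, within numbers 4 to 6. The genes that fell were Gstm2 (−0.48, adjusted p = 2.55e-04) and Glo1 (−0.24, adjusted p = 6.07e-03, both by edgeR). Gsta3 had at most 1.91 normalized counts in a vehicle library and 34.6 to 68.9 after BAM15, and no fold is given because every vehicle library was under 3 counts. Gsta2 had a log2 fold change of 2.98 at a mean below 50 counts, but 46.7% of its 3′ windows also occur in Gsta1 or other copies, and Gstp1 (1.46, adjusted p = 0.110) shares 91.2%, so both counts are uncertain.

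Extracellular breakdown and transport held 6 of 11 tested genes that rose at an adjusted p-value below 0.01, 2 of them past all thresholds, with a median of 0.45. Of all tested genes, 22.0% rose at that p-value and 3.70% past all thresholds. Abcc4, an exporter of organic anions that can carry glutathione, rose from 56.0 ± 10.2 to 410 ± 32.7 normalized counts (SD, n = 6; log2 fold change 2.87, adjusted p = 2.03e-11 by edgeR). Anpep, an aminopeptidase that splits cysteinylglycine, rose by 1.42, and the related mitochondrial carriers Slc25a39, which imports glutathione, and Slc25a40 by 0.89 and 0.96. Abcc1 and Abcc5 rose by 0.49 and 0.32. The other tested peptidases of the list, Dpep1 (0.19), Dpep2 (0.21), Lap3 (0.14) and Cndp2 (0.22), did not pass. Their adjusted p-values were 0.152, 0.540, 0.303 and 0.0240 by edgeR. Of the γ-glutamyl transpeptidases that start glutathione breakdown outside the cell, Ggt5 and Ggt7 had too few counts to be tested, and Ggt1 and Ggt6 were not analysed here. Oplah, which returns pyroglutamate to glutamate, was at 0.45 on the log2 scale (adjusted p = 0.0145 by edgeR), and exons of Smpd5 on the opposite strand cover 181 of its last 400 bases.

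**Figure D4:**
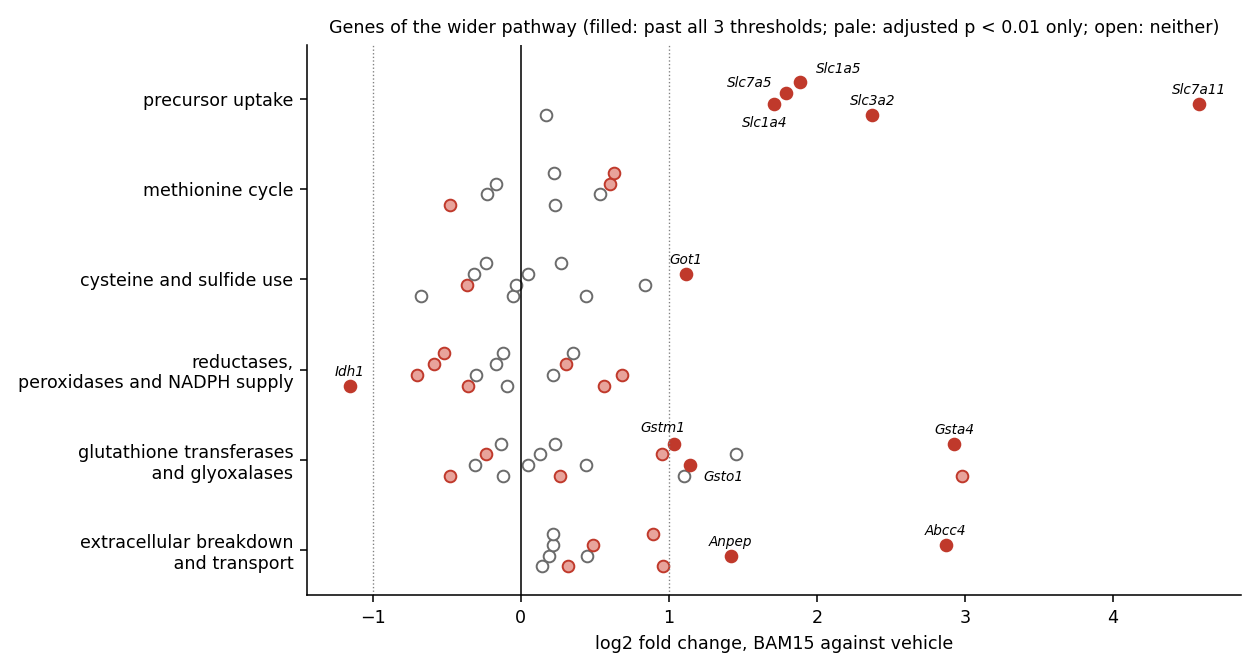
Log2 fold change after BAM15 of the tested genes in 6 lists around glutathione metabolism, each point 1 gene over 12 libraries, filled where past all 3 thresholds, pale where only the adjusted p-value is below 0.01 and open otherwise. Gsta3 is left out because every vehicle library held under 3 counts of it. In precursor uptake, 5 of 6 points are filled and lie to the right, and Idh1 (−1.16) is the filled point on the left.

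Transcripts of regulators of these genes, and of other targets of those regulators, were measured in the same libraries. The activity of the regulators was not measured. All 9 genes of a short integrated stress response list, which includes Atf4 itself (log2 fold change 2.10), Ddit3, Trib3 and Asns, rose past the thresholds, with a median of 2.33, and the study displayed Ddit3, Atf3 and Trib3 among its most changed genes. Of 8 genes of NRF2 control and targets, 6 rose at an adjusted p-value below 0.01 and 4 past the thresholds, with a median of 0.90. Over all tested genes, 22.0% rose at that p-value and 3.70% past the thresholds. The antioxidant genes Hmox1, Srxn1 and Nqo1 rose by 2.05, 1.57 and 1.19 on the log2 scale. Nfe2l2, which encodes NRF2, rose by 0.61, beside 0.64 for Gclm, 0.50 for Gclc and 0.14 for Gsr, which did not pass. Keap1 (−0.13, adjusted p = 0.115) and Bach1 (−0.15, adjusted p = 0.348), which restrain NRF2 and its targets, did not pass in edgeR over all 12 libraries. Within library numbers 4 to 6, Keap1 was at −0.25 (adjusted p = 2.57e-03) and Bach1 at −0.34 (adjusted p = 0.0239), while within numbers 1 to 3 they had adjusted p-values of 0.730 and 0.998 (edgeR's 4-group model). The difference of the effects between these numbers did not pass for either, with adjusted p-values of 0.127 and 0.209. Slc7a11 and Txnrd1 stand in this list and also in those above.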

How the data were processed

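RNA from 12 C2C12 libraries (6 BAM15, 6 vehicle) was analysed. The authors sequenced 3′ QuantSeq libraries and aligned them with the BlueBee platform, and the deposited counts are whole reads per Ensembl gene, without normalization. The submitters' processing notes name GRCm38 and DESeq2 1.22.2, and the aligner, annotation and counting strand are not given in the sources used here. The deposited normalized table supplied gene symbols only, and 2260 of 2293 missing symbols were taken from GENCODE M21. The tables hold 11 further columns that were not used.

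Counts were filtered with filterByExpr (2383 genes removed), scaled by TMM (factors 0.932 to 1.04) and fitted with edgeR 4.0.16 in R 4.3.3 (robust quasi-likelihood, condition as the only term). Standard errors are the log2 fold change over the square root of F. Effects by library number came from a model with 4 groups. Ratios used a pseudocount of 0.5. Alternatives were DESeq2 1.42.0 with and without shrinkage, limma-voom (limma 3.58.1), other scalings, filters, thresholds and blocks, and each library left out. Fits were tested on simulated data. Figures were drawn with matplotlib 3.10.9. No library repeated another, since within a condition chi-square per gene between libraries was 4.72 to 78.4. Intervals and floors cover counting error or library spread only, since PCR reads without molecular identifiers are not independent molecules.

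Genes named are the 9 members, list members that passed or whose role bears on a member, and the 3 genes most correlated with each member past the thresholds, and with Gsr, added after its values were seen. Members and lists were chosen with earlier results of these data known.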

Additional observations from a re-analysis of the deposited data

Results flagged for a closer look

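The effect of BAM15 on Gsr differed between library numbers 4 to 6 and 1 to 3 by 1.56 on the log2 scale (adjusted p = 0.0444, edgeR interaction test with Benjamini-Hochberg adjustment over 12730 genes), and the adjusted p-value was 0.0547 with limma-voom. The library numbers carry no stated meaning in the labels, and the division was known to separate the BAM15 libraries from earlier results, so the difference is not independent of that knowledge. In the 16 groups of 6 libraries with reads (8 genes in 2 conditions), no single library stood apart from the other 5 by Dixon's criterion.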

How the results depend on the processing

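The counts of 2 genes past the thresholds and of 4 with an adjusted p-value below 0.01 did not move under 29 and 25 alternatives, although within library numbers 1 to 3 the 4 held Gsr (lower) and not Gclc. In all 25 fits each, Cth, Chac1 and Gclm kept their direction and their side of the p-value threshold (log2 fold change 3.60 to 4.21, 3.55 to 3.70 and 0.57 to 0.71). Within numbers 1 to 3 Gclc had 0.35 (adjusted p = 0.0473). Gsr, which did not pass, turned negative with limma-voom (−0.13), the replicate block (−0.057), a block for numbers 1 to 3 and 4 to 6 (−0.028), and within numbers 1 to 3 (−0.91), and leaving out single libraries gave −0.20 to 0.31. Gss, also not past the threshold, turned positive within numbers 1 to 3 (0.070), with −0.090 to −0.0092 when single libraries were left out, and the Cth difference between library numbers turned negative with limma-voom (−0.015). The number of all genes past the thresholds, 927, became 467 in a test against a 2-fold change, 1457 without a threshold on mean counts and 189 with a log2 fold change above 2. Cysteine and sulfide use went from 1 gene to 0 within numbers 1 to 3, and reductases, peroxidases and NADPH supply from 1 to 0 within numbers 4 to 6, as Got1 and Idh1 were then under 2-fold. The interaction by library number called 339 genes with edgeR and 0 with limma-voom (3270 at an unadjusted p-value below 0.05), and so 1 and 0 of the 8 tested genes. The Chac1 to Chac2 ratio, at 3.91, had an adjusted p of 0.0625 with the replicate block, where its unadjusted p-value was the smallest possible, and sets of 3 libraries were too small for its test. Where no cause is named, it was not tested. Same-numbered BAM15 and vehicle libraries deviated together with correlations between −0.076 and 0.31, above 0.1 in 4 of 6 pairs, and 2 of 6 BAM15 libraries correlated best with their own number, so the numbers were not taken to pair the libraries, and whether they mark anything shared is not known. The replicate block moved none of the 8 tested genes across the p-value threshold, and single calls of other genes were not compared. Depth limits Cbs and Chac2.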
